A study of Homo sapiens
Mus musculus with 8 samples.

Results

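The 9 genes described here are the human TAL1 complex and NOTCH genes TAL1, LMO1, LMO2, MYB, RUNX1, TCF3, TCF12, NOTCH1 and DTX1, out of 32738 human genes in the count matrices. They were compared between Jurkat and TALL-104, the 2 human cell lines of a mixture profiled with 3 droplet kits. Both lines come from T-cell acute lymphoblastic leukemia (T-ALL): Jurkat is used as a CD4+ T-cell line, and TALL-104 is a cytotoxic CD8+ line. Each is 1 established, unedited line. TALL-104 was grown in IMDM with interleukin-2, a T-cell growth factor, and Jurkat in RPMI without it, so line and culture conditions cannot be told apart. The same droplets also held the mouse lines EL4 and IVA12, mixed at equal parts with the human lines.

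TAL1 is a basic helix-loop-helix transcription factor of blood stem cells and erythroid cells that is normally shut off as T cells mature. It binds DNA together with an E protein (TCF3 or TCF12) and is joined by the LIM-domain adaptors LMO1 or LMO2, the bridging factor LDB1, and by RUNX1 and MYB, with which it shares many enhancers in T-ALL. NOTCH1 is a receptor that is cut after it meets a ligand, and its freed intracellular part switches on target genes with the DNA-binding factor RBPJ. Activated NOTCH1 is a common driver of T-ALL, and DTX1 encodes an E3 ligase of the pathway whose transcription is itself raised by NOTCH.

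The matrices held 7 libraries: 4 of the 10x 3′ v3 kit, 2 of the 5′ v1 kit and 1 of the 3′ v2 kit, which is replicate 2. Total unique molecular identifiers (UMIs, each a counted transcript) ran from 24790710 to 251164949 per library. A cell was a cell identifier with at least 1000 UMIs, and a human cell had over 80% of them on human genes. A mouse cell had over 80% of them on mouse genes, so it could still hold UMIs of a human cell. A human cell was named TALL-104 where the cytotoxic markers NKG7, CST7 and CD8A together held at least 0.1% of its human UMIs, and Jurkat where they held under 0.02%. In a cell with few UMIs, 1 marker UMI could therefore decide the name. This gave 8074 Jurkat and 2746 TALL-104 cells of 11845 human cells, and 1025 cells between the thresholds entered neither line. Per library there were 288 to 3038 Jurkat cells, with a median of 10066.5 to 18529.5 UMIs, and 30 to 1101 TALL-104 cells, with a median of 1930 to 2761.5 UMIs. Replicates 2 and 4 of 3′ v3, which came from another cell mixture than replicates 1 and 3, stood apart, with a median mitochondrial share of over 10% in Jurkat. Libraries with the same list of possible barcodes shared at most 4 barcodes of human cells.

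The names were set against markers that the rule did not use. Of 12 further cytotoxic and TALL-104 markers, 11 had the higher pooled level in TALL-104, and the sum of the list in Jurkat was 0.405% to 1.74% of that in TALL-104. The exception was CD8B, at 6.53 CPM in Jurkat and 1.64 CPM in TALL-104 (CPM is a gene's share of the human UMIs times 1000000). All 9 Jurkat markers found in the matrices, of 12 listed, had the higher pooled level in Jurkat, 7 of them in each of 7 libraries. The other two, MAL and CD5, stood in TALL-104 at 80.8% and 78.2% of Jurkat, with TALL-104 the higher in 3 libraries for MAL and in 1 for CD5. The sum of the 9 in the TALL-104 cells was 4.90% to 13.3% of the Jurkat sum of the same library, and CD1E and ARPP21, picked from that list after their values were seen, stood at 3.61% and 4.35%. The part of free RNA and of droplets with several cells in each low TALL-104 level was not tested, and the levels in mouse cells and the UMIs in large TALL-104 cells are given beside them.

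All levels below are CPM, with UMIs as the counts, summed over the cells of a line in a library, and differences are log2 Jurkat minus TALL-104. The lines were compared with edgeR's quasi-likelihood test over 7 Jurkat and 7 TALL-104 sums with the library as a term, and p-values were adjusted by the Benjamini-Hochberg method over the 10268 genes tested. Of those genes, 65.1% passed an adjusted p of 0.05, with 34.1% higher in Jurkat and 31.0% lower, so a call between these lines is common. Each of the 9 members passed the filter on low counts, and edgeR called 8 higher and 1 lower in Jurkat. Some, such as LMO1, DTX1, LMO2, TAL1 and MYB, passed only through the line in which they were high and so had to differ. The p-values of such genes, here and below, and the count of calls are given as a description. Replicates are separate libraries, several from 1 cell mixture, so the p-values measure the spread between libraries.

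**Figure D1:**
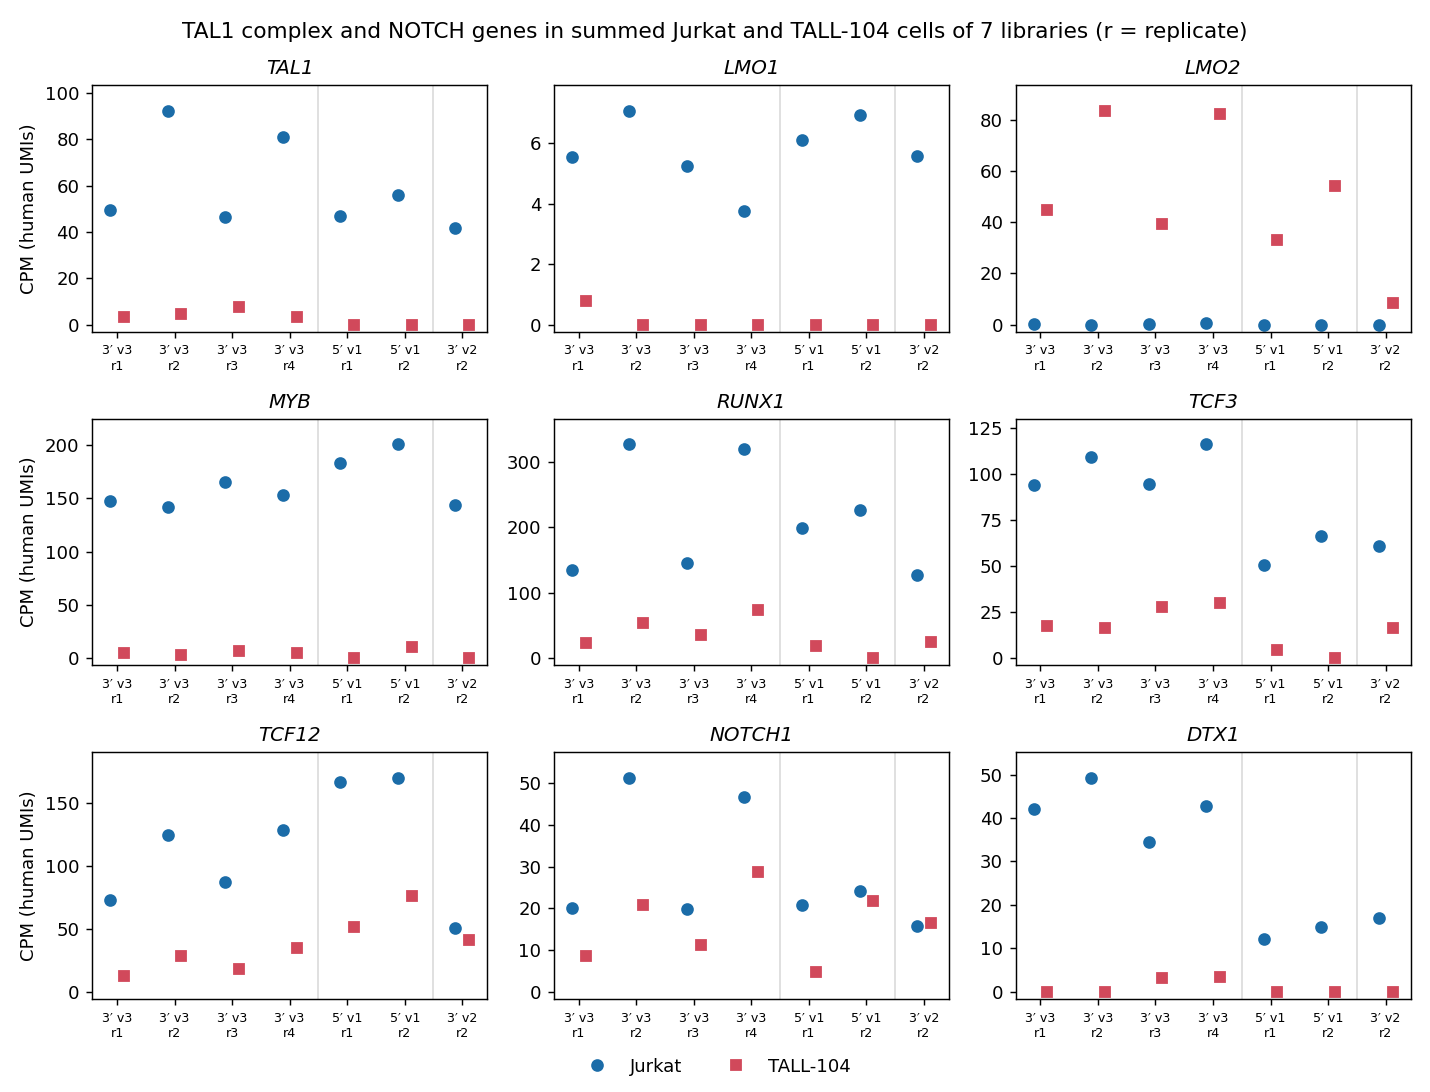
Level of each gene in CPM of human UMIs (y axis, linear, a separate scale per gene) in each of 7 libraries (x axis; r is the replicate), with circles for the summed Jurkat cells and squares for the summed TALL-104 cells. LMO2 was higher in TALL-104 in 7 of 7 libraries, NOTCH1 was higher in Jurkat in 6 of 7, and TAL1, MYB, RUNX1, TCF3 and TCF12 in 7 of 7. LMO1 and DTX1 were higher in Jurkat in the 4 libraries of 3′ v3, and in the other 3 libraries a TALL-104 count of 0 UMIs left no detectable difference.

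TAL1 (ENSG00000162367) was higher in Jurkat in 7 of 7 libraries. Its level in Jurkat was 41.5 in the lowest library, 49.5 in the median library and 92.3 in the highest, against 0, 3.15 and 7.57 in TALL-104, and the groups did not overlap. The difference was 3.56 on the log2 scale (SE 0.27, edgeR adjusted p = 1.7e-11), with a 95% interval of 2.997 to 4.120. Without replicate 3 of 3′ v3, which held 17 of the TALL-104 UMIs, it was 4.35. TALL-104 cells of that replicate had a median of 15.3% of their UMIs on mouse genes. This was the highest median of the 7 libraries, and the lowest was 0.921%. The 7 libraries held 7360 TAL1 UMIs in Jurkat and 29 in TALL-104, all of the latter in 3′ v3. In 5′ v1, TALL-104 had 0 TAL1 UMIs among 304088, which allows up to 9.87 CPM, and Jurkat was at least 5.04-fold higher by this floor of 3 counts over the kit. Such floors and intervals cover counting error only, and a floor covers only that of the line with 0 UMIs.

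The few TAL1 UMIs in TALL-104 were not above the level in mouse cells. TALL-104 cells held 1.06 TAL1 UMIs per 100 cells and mouse cells of the same libraries held 1.91, and in 0 of 7 libraries was TALL-104 the higher. Mouse cells had a median of 23395 to 27403 UMIs in all and of 7 to 252 UMIs on human genes per library. In replicate 4 of 3′ v3 their 97 TAL1 UMIs lay in 55 cells. Droplets that also held a human cell were not taken out of the mouse cells, and their part in the mouse-cell level was not tested. Of the 29 UMIs, 12 lay in the 46 TALL-104 cells with over 6000 UMIs. Without those cells, the TAL1 difference was 4.23 (SE 0.33, edgeR adjusted p = 2.1e-11).

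The LIM-domain adaptors, which bridge TAL1 to LDB1, split between the lines. LMO1 (ENSG00000166407) was detected in Jurkat in 7 of 7 libraries, at 3.77 in the lowest, 5.57 in the median and 7.08 in the highest. In TALL-104 there was 1 LMO1 UMI in all, in replicate 1 of 3′ v3, against 802 in Jurkat. The pooled ratio was 34.0, with an exact 95% counting interval of 6.09 to 1345, and the fitted difference was 4.73 (SE 0.73, edgeR adjusted p = 3.6e-06). The fitted value rests on that 1 UMI: without replicate 1 of 3′ v3 it was 8.67, and without replicate 3 LMO1 fell below the filter on low counts. In 5′ v1 and 3′ v2 the LMO1 level of Jurkat was under the floor of TALL-104, 9.87 and 24.9 CPM, so no difference was detectable there.

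LMO2 (ENSG00000135363) was the member that went the other way. In TALL-104 it stood at 8.29 in the lowest library, 44.9 in the median and 83.6 in the highest, whereas Jurkat had 0 UMIs in 4 of 7 libraries and at most 0.754. The groups did not overlap. LMO2 was lower in Jurkat by a log2 difference of -8.06 (SE 0.32, 95% interval -8.72 to -7.39, edgeR adjusted p = 2.9e-17). The lowest TALL-104 level, in 3′ v2, was a single UMI among 120565. In 5′ v1, TALL-104 had 12 LMO2 UMIs and Jurkat 0 among 38423170, so TALL-104 was at least 505-fold higher. TALL-104 cells held 12.3 LMO2 UMIs per 100 cells, mouse cells 0.280 and Jurkat cells 0.297. The Jurkat value was close to that of the mouse cells, which should lack the human gene. With only Jurkat cells of at least 5000 UMIs, the log2 difference of LMO2 was -8.70. The part of misnamed cells in the Jurkat value was not tested.

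Pooled over libraries, then, TAL1 and LMO1 together were seen in Jurkat, and LMO2 without TAL1 above the mouse-cell level was seen in TALL-104. When TALL-104 was limited to cells with at least 0.5% marker UMIs, 40 LMO2 UMIs (42.9 CPM), 1 TAL1 UMI and 0 LMO1 UMIs were left among 931592. LMO1 and LMO2 then fell below the filter on low counts and were not tested, and the fitted TAL1 difference, set by 1 UMI, was 5.62.

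**Figure D2:**
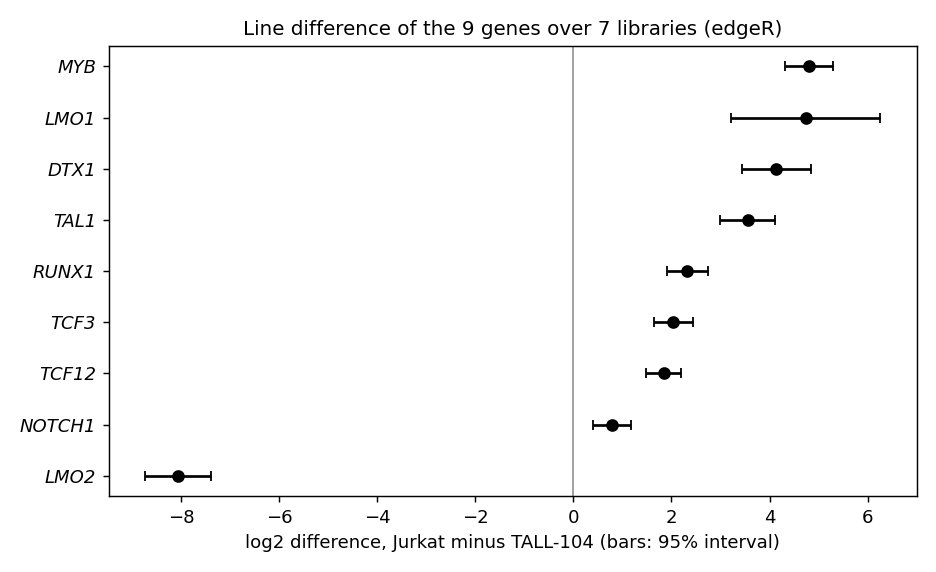
Log2 difference between Jurkat and TALL-104 (x axis) of the 9 genes (y axis) over 7 libraries, with points for the edgeR estimate and bars for its 95% interval. LMO2 lies at -8.06, NOTCH1 at 0.78, and the other genes between 1.84 and 4.80.

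MYB (ENSG00000118513), a transcription factor of blood progenitors, was higher in Jurkat in 7 of 7 libraries. Its Jurkat level was 142 in the lowest library, 153 in the median and 201 in the highest. In TALL-104 it was 0, 4.73 and 10.8, from 32 UMIs in all, and the groups did not overlap. The difference was 4.80 (SE 0.24, edgeR adjusted p = 2.4e-15), which its error does not separate from that of LMO1. Without TALL-104 cells of over 6000 UMIs it was 5.43 for MYB. TALL-104 cells held 1.17 MYB UMIs per 100 cells, under the 2.99 of mouse cells. They exceeded the mouse cells in 1 of 7 libraries, replicate 2 of 5′ v1, by 1 UMI in 30 cells.

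RUNX1 (ENSG00000159216), the DNA-binding partner of CBFB, was present in both lines. Jurkat ranged from 128 through a median of 198 to 327, and TALL-104 from 0 through 24.9 to 73.0, with no overlap. The difference was 2.32 (SE 0.20, edgeR adjusted p = 2.5e-10). In TALL-104 there were 9.58 RUNX1 UMIs per 100 cells against 5.33 in mouse cells, higher in 5 of 7 libraries. In 3′ v3 the line difference was a 3.64-fold pooled ratio, and in 5′ v1, where TALL-104 had only 4 UMIs, it was 15.8-fold.

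The E proteins TCF3 and TCF12, dimerization partners of TAL1, were also higher in Jurkat. TCF3 (ENSG00000071564) stood at 50.7, 94.4 and 116 in the lowest, median and highest Jurkat libraries and at 0, 16.6 and 30.1 in TALL-104, with no overlap. Its difference was 2.04 (SE 0.19, edgeR adjusted p = 9.4e-10). TCF12 (ENSG00000140262) stood at 50.9, 124 and 170 in Jurkat and at 12.6, 34.8 and 75.9 in TALL-104. These groups overlapped across kits, yet Jurkat was higher within each of 7 libraries, and the difference was 1.84 (SE 0.17, edgeR adjusted p = 9.8e-10). TALL-104 exceeded the mouse cells in TCF3 UMIs per cell in 5 libraries and in TCF12 UMIs per cell in 6.

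NOTCH1 (ENSG00000148400) differed least. Jurkat ranged from 15.7 through 20.9 to 51.3 and TALL-104 from 4.72 through 16.6 to 28.8, so the groups overlapped, and in 3′ v2 TALL-104 was the higher, from 2 UMIs. The difference was 0.78 (SE 0.19, 95% interval 0.40 to 1.17, edgeR adjusted p = 0.00077). It was no longer called when TALL-104 was limited to cells with at least 0.5% marker UMIs (0.84, edgeR adjusted p = 0.072) or in 5′ v1 alone (1.17, edgeR adjusted p = 0.33). TALL-104 held 3.57 NOTCH1 UMIs per 100 cells against 1.45 in mouse cells.

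DTX1 (ENSG00000135144) was higher in Jurkat in the 4 libraries of 3′ v3. In the other 3 libraries TALL-104 had 0 UMIs and Jurkat lay under the floor of that library's TALL-104 sum, so no difference was detectable in any one of them. Its Jurkat level was 12.2 in the lowest library, 34.5 in the median and 49.3 in the highest, and TALL-104 was at 0 in 5 of 7 libraries and at most at 3.35. The groups did not overlap, and the difference was 4.14 (SE 0.34, edgeR adjusted p = 7.9e-11), or 4.84 without replicate 3 of 3′ v3. The 12 DTX1 UMIs of TALL-104 came to 0.437 per 100 cells, under the 1.48 of mouse cells, and 5 of them lay in cells with over 6000 UMIs. In 5′ v1 alone the line difference of DTX1 was not called (edgeR adjusted p = 0.073), and the floor over both libraries together put Jurkat at least 1.32-fold higher.

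Cells were also compared one by one at equal depth, since a Jurkat cell had several times the UMIs of a TALL-104 cell. Each cell was thinned to 800 human UMIs, and the expected share of cells with at least 1 UMI of a gene was taken per library. An exact two-sided sign-flip permutation test over 7 libraries, in which p cannot go below 0.0156, was adjusted over the 9 genes. For 8 of 9 members, the exact p was this smallest value (adjusted 0.0176), which any gene with the same direction in 7 of 7 libraries reaches. The test was not run on other genes, so no share over all genes stands beside this count. By edgeR, 65.1% of all genes were called between the lines. A count of 0 in the lower line fixed the sign in some libraries: in 6 of 7 for LMO1, 5 for DTX1, 4 for LMO2, 3 for TAL1, 2 for MYB and 1 each for RUNX1 and TCF3. In 3 of them for LMO1 and 3 for DTX1 no difference in level was detectable, so nothing was read from the p of these genes.

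MYB was found in 11.9% ± 1.64 (SD, n = 7) of thinned Jurkat cells and in 0.325% ± 0.378 of TALL-104 cells. RUNX1 was found in 15.4% ± 5.43 and 2.49% ± 1.99, TAL1 in 4.78% ± 1.67 and 0.117% ± 0.149, and DTX1 in 2.22% ± 1.08 and 0.0463% ± 0.0848. LMO2 was found in 0.0432% ± 0.0640 of Jurkat cells and in 3.59% ± 2.17 of TALL-104 cells. For LMO1 the shares were 0.431% ± 0.0849 and 0.0117% ± 0.0308, where the TALL-104 value rests on 1 cell. NOTCH1 was the exception, in 2.14% ± 0.985 of Jurkat cells and 1.496% ± 1.02 of TALL-104 cells. The NOTCH1 difference of 0.648 points was positive in 5 of 7 libraries, with an exact permutation p of 0.188. Without thinning, Jurkat cells with a TAL1 UMI made up 39.6% to 59.7% per library. The unthinned share was 0% to 1.09% in TALL-104 and 0% to 2.76% in mouse cells. At the stricter naming of TALL-104 cells, the exact tests of LMO2 and TCF12 no longer passed (adjusted p = 0.161 and 0.176 by permutation). By edgeR at that naming TCF12 was still called (2.21, edgeR adjusted p = 1.4e-10), and LMO2 was not tested.

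**Figure D3:**
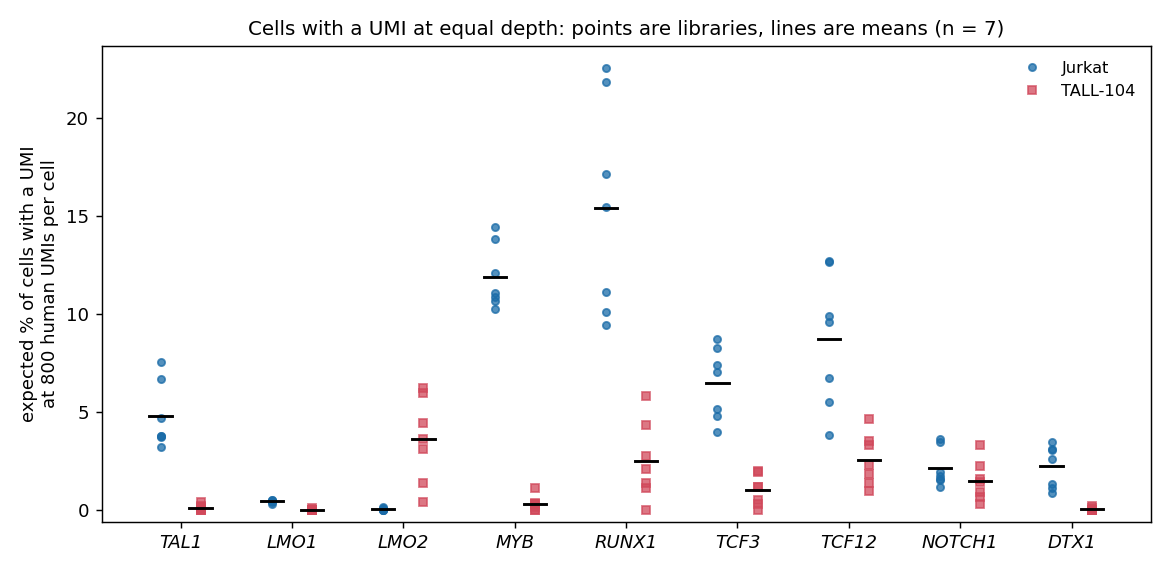
Expected percent of cells with at least 1 UMI of each gene after thinning to 800 human UMIs per cell (y axis), for Jurkat (circles) and TALL-104 (squares), with a point per library and a line at the mean of 7 libraries. The means are 11.9% and 0.325% for MYB, and 0.0432% and 3.59% for LMO2.

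The kits count opposite ends of the transcript, and their line differences were compared as an interaction of line and kit (3′ v3 minus 5′ v1). Each kit had its own cell mixtures, so transcript end, other traits of the kit and mixture cannot be told apart in this test. With edgeR, 0 of 9 members were called, against 1.23% of all genes tested, and 2 had an unadjusted p under 0.05. DESeq2 called 0 of the 8 members it tested. The pair with the low p were RUNX1, whose line difference was smaller in 3′ v3 by a log2 value of -1.92 (95% interval -3.25 to -0.59, edgeR adjusted p = 0.14), and LMO2 (edgeR adjusted p = 0.17). The RUNX1 value rests on the 4 TALL-104 UMIs of 5′ v1 replicate 1: it was -11.9 without that library and -1.28 without replicate 2. For LMO2, Jurkat had 0 UMIs in both 5′ v1 libraries, so its line difference there has no finite value and the size of the interaction is not given. The 5′ v1 libraries held 70 and 30 TALL-104 cells, in which TAL1, LMO1 and DTX1 were at 0 UMIs. Their intervals were accordingly wide, from -20.9 to 3.79 for TAL1. For TCF12, with 18 TALL-104 UMIs in 5′ v1, the interval was -0.29 to 1.25.

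Within Jurkat, 4 sums of 3′ v3 were compared with 2 of 5′ v1. The kits had separate cell mixtures, so kit and mixture cannot be told apart. Of 8 members tested, edgeR called 3, or 2 higher in 3′ v3 and 1 higher in 5′ v1, against 17.5% of all genes tested. LMO2 was too low in Jurkat to be tested. DTX1 had levels of 42.1, 49.3, 34.5 and 42.8 in replicates 1 to 4 of 3′ v3 and of 12.2 and 14.9 in 5′ v1, with 16.96 in 3′ v2. Its kit difference was 1.59 (SE 0.20, edgeR adjusted p = 0.0042). Without replicate 1 or replicate 2 of 5′ v1 it was 1.49 and 1.69, and neither passed (edgeR adjusted p = 0.091 and 0.066). TCF3 was higher in 3′ v3 by 0.78 (SE 0.20, edgeR adjusted p = 0.037) and TCF12 lower by a log2 difference of -0.78 (SE 0.20, edgeR adjusted p = 0.039). Leaving out any single library ended both calls, with adjusted p up to 0.33 for TCF3 and 0.28 for TCF12 in the fits without replicate 1 of 5′ v1. The differences themselves lay at 0.64 to 0.92 for TCF3 and at -0.91 to -0.59 for TCF12 over all alternatives.

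The 4 libraries of 3′ v3 came from 2 cell mixtures, replicates 1 and 3 from one and 2 and 4 from the other, and several members differed between them in both lines. In Jurkat, RUNX1 stood at 134 and 146 in the first mixture and at 327 and 319 in the second, a ratio of means of 2.31. NOTCH1 stood at 20.1 and 19.8 against 51.3 and 46.7, a ratio of 2.46, and TAL1 at 49.5 and 46.5 against 92.3 and 80.8, a ratio of 1.80. TCF12 differed by a ratio of 1.57, DTX1 and TCF3 each by 1.2 and, with overlap, MYB by 0.942 and LMO1 by 1.00. In TALL-104, RUNX1 stood at 23.7 and 36.1 in the first mixture and at 53.7 and 73.0 in the second, and NOTCH1 at 8.67 and 11.1 against 20.9 and 28.8. LMO2 stood there at 44.9 and 39.2 against 83.6 and 82.4. The ratios of means in TALL-104 were 2.12 for RUNX1, 2.51 for NOTCH1, 1.97 for LMO2 and 2.05 for TCF12, none with overlap, whereas the TAL1 levels overlapped (0.730). This split was noticed in the values and was not tested. With so few libraries per mixture, lack of overlap is common by chance. The share of all genes without overlap is not given, so nothing particular to the members was read from it. The median mitochondrial share of Jurkat cells lay between 4.88% and 6.34% in the first mixture and between 10.2% and 10.6% in the second. Median UMIs lay between 17436.5 and 17902.5 in the first and between 10066.5 and 10913 in the second. Their part in the ratios was not tested.

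With the mixtures apart, the comparison of Jurkat with 5′ v1 changed. Each such fit held 1 mixture of 3′ v3, so its p-values measure the spread between libraries and not that between mixtures. With replicates 1 and 3, edgeR called 4 of 8 members, against 59.8% of all genes tested, and with replicates 2 and 4 it called 8 of 8, against 72.7%. RUNX1 went from -0.44 in replicates 1 and 3 (edgeR adjusted p = 0.0036) to 0.43 in replicates 2 and 4 (edgeR adjusted p = 0.00028). NOTCH1 moved from -0.02 (edgeR adjusted p = 0.90) to 0.94 (edgeR adjusted p = 8.1e-08). TAL1 moved from 0.07 (edgeR adjusted p = 0.58) to 0.57 (edgeR adjusted p = 4.6e-05) and MYB from -0.14 (edgeR adjusted p = 0.33) to -0.55 (edgeR adjusted p = 1.8e-05). LMO1 moved from -0.11 (edgeR adjusted p = 0.54) to -0.62 (edgeR adjusted p = 0.023). DTX1, TCF3 and TCF12 kept their direction in both. The line differences kept their direction in each mixture: edgeR called 9 of 9 members from replicates 1 and 3 and 8 of the 8 it tested from replicates 2 and 4 (LMO1 was too low there), with LMO2 lower and the rest higher in Jurkat, against 66.0% and 66.1% of all genes. Their size was not constant. For TAL1 it was 2.82 (SE 0.23) in replicates 1 and 3 and 4.52 (SE 0.28) in replicates 2 and 4, both outside the interval given above. The change between mixtures was not tested.

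The wider pathways were followed with 7 lists of 90 genes, of which 61 were tested between the lines. Of these, 22 were higher in Jurkat, 22 were lower and 17 were not called, beside the 65.1% called among all genes. The lists differed in direction.

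**Figure D4:**
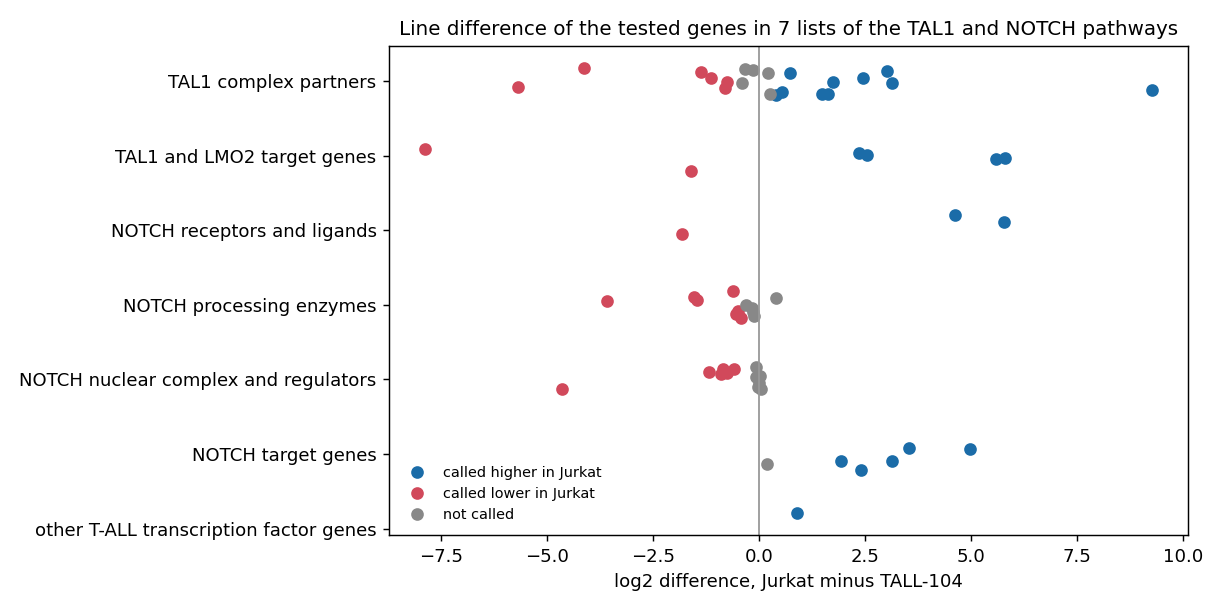
Log2 difference between Jurkat and TALL-104 (x axis) of each tested gene in 7 pathway lists (y axis, points spread at random within a list), colored by the edgeR call. All 5 called NOTCH target genes lie above 0, and the 7 called processing enzymes and 6 called nuclear genes lie below it.

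Of the TAL1 complex partners, 10 of 21 tested genes were higher in Jurkat, 6 lower and 5 not called, with a median of 0.27 beside 0.05 over all genes. In 3′ v3 alone 9 of 22 were higher and 9 lower. TCF4, another E protein, had 914 UMIs in Jurkat and 0 in TALL-104, so Jurkat was at least 12.9-fold higher. The corepressor CBFA2T3 (3.15, edgeR adjusted p = 4.4e-11) and the E protein inhibitor ID1 (3.01, edgeR adjusted p = 1.4e-11) were higher too. Another inhibitor, ID2, was lower in Jurkat (-5.68, edgeR adjusted p = 1.2e-16), with 5.56 ± 3.01 in Jurkat and 324 ± 189 in TALL-104 (SD, n = 7). RUNX3, the RUNX factor of cytotoxic T cells, was lower by a log2 difference of -4.12 (edgeR adjusted p = 4.5e-15), opposite to RUNX1, and the acetyltransferase CREBBP by -1.35 (edgeR adjusted p = 3.7e-07). LDB1, which the LMO proteins bind, was not called (-0.40, edgeR adjusted p = 0.051), nor were GATA3 (0.27, edgeR adjusted p = 0.18) and CBFB (-0.14, edgeR adjusted p = 0.54). LYL1, a close relative of TAL1, was not tested, with 234 UMIs in Jurkat and 26 in TALL-104 (1.63 and 4.26 CPM). Jurkat was the higher for LYL1 in 3 libraries and TALL-104 in 4, and the groups overlapped.

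Genes known as targets of TAL1 and of LMO2 went apart by gene. Of 6 tested, 4 were higher and 2 lower in Jurkat, with a median of 2.45. ALDH1A2, an enzyme of retinoic acid synthesis, was higher in Jurkat by 5.59 (edgeR adjusted p = 3.8e-13) and ARID5B by 2.55 (edgeR adjusted p = 2.3e-11). KIT, the receptor of stem cell factor, was lower in Jurkat by a log2 difference of -7.86 (edgeR adjusted p = 2.1e-19), with 1034 UMIs in TALL-104 and 121 in Jurkat, and TRIB2 by -1.60 (edgeR adjusted p = 4.3e-09).

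In the NOTCH pathway, 3 of 8 receptors and ligands were tested, 2 higher and 1 lower in Jurkat, with a median of 4.63. In 3′ v3 alone 5 were tested, 2 higher and 3 lower, and the median was -1.85. NOTCH3 had 1190 UMIs in Jurkat and 1 in TALL-104, a pooled ratio of 50.5 (exact 95% counting interval 9.04 to 1995). The ligand gene DLL3 was higher in Jurkat by 4.63 (edgeR adjusted p = 7.4e-10), and NOTCH2 was lower by a log2 difference of -1.82 (edgeR adjusted p = 3.0e-09). DLL1, another ligand gene, was not tested over all libraries and had 184 UMIs in TALL-104 and 22 in Jurkat (30.2 and 0.153 CPM), with TALL-104 the higher in 6 of 7 libraries. Of the target genes, 5 of 6 tested were higher in Jurkat, beside 34.1% of all genes, with a median of 2.77. CCND3 was not called (0.19, edgeR adjusted p = 0.35). HES1 and PTCRA, with 6 and 3 UMIs in TALL-104, could pass the filter on low counts only through Jurkat. The same held for NOTCH3 and DLL3, with 1 and 4, so the direction of these genes was fixed. IGF1R, another called target gene, had 32 UMIs in TALL-104, as many as MYB, which passed only through Jurkat. The count of called target genes is therefore given as a description. Among the tested target genes the largest differences were in HES4 (4.99, edgeR adjusted p = 5.8e-15), PTCRA, which encodes the pre-T-cell receptor alpha chain (3.53, edgeR adjusted p = 2.7e-05), with 3 UMIs in TALL-104 and a pooled ratio of 13.2 (exact 95% counting interval 4.52 to 64.3), and HES1 (3.13, edgeR adjusted p = 4.6e-06). The target genes HEY2 and HEYL were not tested and had 648 and 173 UMIs in Jurkat and 0 in TALL-104. IL7R, the interleukin-7 receptor gene, was not tested either, with 1399 UMIs in Jurkat and 4 in TALL-104 and a pooled ratio of 14.8. Of the remaining untested targets, HEY1 had 150 UMIs in Jurkat and 1 in TALL-104, and HES5 had 4 and 0. NRARP had 70 and 2, a pooled ratio of 1.48 (exact 95% counting interval 0.396 to 12.5), with Jurkat the higher in 4 libraries and TALL-104 in 2. The count of 5 of 6 was the same under both other scalings. It was 7 of 10 in replicates 1 and 3 of 3′ v3, where 4702 of 13320 genes were higher. Under the stricter naming of TALL-104 it was 3 of 4, where 2712 of 9303 genes were higher.

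The genes that process and transduce NOTCH signals were lower in Jurkat or not called. Of 12 tested processing enzymes, 7 were lower and 0 higher, and of 12 tested nuclear genes and regulators, 6 were lower and 0 higher, with medians of -0.46 and -0.32. The shares called, 58.3% and 50%, were all lower calls. They were above the 31.0% of all genes called lower and under the 65.1% called either way. With size factors of DESeq2's method both counts of lower genes were 5, and with plain library totals both were 5 and 1 enzyme was higher. With TALL-104 limited to cells of at least 0.5% marker UMIs, 3 of 12 enzymes and 3 of 11 nuclear genes were lower, beside 1901 of 9303 genes tested. The median of the nuclear genes was then 0.09 beside 0.20 over all genes. In replicates 1 and 3 of 3′ v3 alone, 8 of 15 nuclear genes were lower and 2 higher. Of 13320 genes tested there, 4093 were lower and 4702 higher. These scalings moved the median of all genes from 0.05 to 0.19 and 0.17. The protease FURIN (-3.59, edgeR adjusted p = 1.3e-15) and the glycosyltransferase MFNG (-1.53, edgeR adjusted p = 7.4e-10) were lower. So were the coactivator MAML3 (-4.65, edgeR adjusted p = 2.6e-12), RBPJ (-1.18, edgeR adjusted p = 2.6e-07) and NUMBL (-0.89, edgeR adjusted p = 0.024). FBXW7, the ligase that marks cleaved NOTCH for degradation, was not called (0.04, edgeR adjusted p = 0.86). Of other transcription factor genes known from T-ALL, TLX1, HOXA9 and MEF2C had 0 UMIs in both lines. BCL11B, a factor of normal T-cell commitment, was the only one of the list tested (0.89, edgeR adjusted p = 1.4e-05).

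As a description, the genes whose log2 level followed that of TAL1 most closely over the 14 sums were GAS7 (Pearson's r = 0.992), ZBED3 (0.991), CACFD1 (0.990), SLC44A1 (0.989) and RP11-521B24.3 (0.989). The 14 points share their libraries in pairs and split by line. All 5 genes were higher in Jurkat, by 2.43 to 3.90 on the log2 scale.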

How the data were processed

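The authors prepared Chromium libraries from mixtures of Jurkat, TALL-104, EL4 and IVA12 cells, downsampled the reads and aligned them with Cell Ranger 3.0.2 to a combined hg19 and mm10 reference. The deposited matrices hold raw UMI counts per gene and cell identifier, for all barcodes and with replicates kept apart; 7 of 8 listed libraries were used, and the matrix of 3′ v2 replicate 1 was not analysed here. Cells were named by the thresholds given above, with no doublet caller, and UMI counts were summed per line and library. Sums were tested with edgeR 4.0.16 (R 4.3.3; TMM, filterByExpr with a minimum count of 10), with DESeq2 1.42.0 as an alternative; the test was tested on simulated data. The rule for named genes took the 9 members, up to 3 called genes per direction and list, and the 5 genes most correlated with TAL1; others are named for their role or their counts, after their values were seen, and some genes that the rule names are not reported here. The members and lists were chosen with earlier results of these data known. Marker lists of erythroid and B cells were also counted. Alternatives covered scaling, filters, cell naming, mixtures, kits and each library left out. No genome of the hg19 build was used here, so coordinates and sequences are not given.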

Additional observations from a re-analysis of the deposited data

Results flagged for a closer look

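Of 18 groups of 4 samples of the 3′ v3 kit (9 genes in 2 lines), 1 held a sample far from the others: LMO1 in TALL-104, at 0.788 CPM in replicate 1 and at 0 in the other 3 replicates. The value is 1 UMI. Chance alone sets a sample apart in about 1 of 20 such groups.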

How the results depend on the processing

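The count of genes called between the lines was 6688, 3228 in 5′ v1 alone, and 5822 to 6874 when single libraries were left out. Of 182 member values under alternatives for the line difference, 178 kept direction and call, 4 lost the call and 0 reversed. Alternatives in which a member fell below the filter are not among them: LMO1 had 16 values and LMO2 19, beside 21 for TAL1. LMO1, DTX1, LMO2, TAL1 and MYB had to differ, as said above, so their direction was largely fixed and the tally is a description. The interaction count was 126, or 309 without a filter on low counts, 195 with DESeq2, 79 with a mitochondrial share under 10%, 60 with stricter TALL-104 naming, and 2 to 223 when single libraries were left out, with 2 without either 5′ v1 replicate. Its split was 61 higher and 65 lower in 3′ v3, but 134 and 31 with RLE size factors and 109 and 22 with library totals. The kit count in Jurkat was 2473, or 8208 and 9404 with only replicates 1 and 3 or 2 and 4 of 3′ v3 (added after the data were seen), and 115 to 2150 when single libraries were left out, lowest without 5′ v1 replicate 1 (115) and 2 (197). Reversed interaction values, none called, were DTX1 at 1.80 with DESeq2 and 1.67 with stricter naming, NOTCH1 at 0.73 with stricter naming and, without 5′ v1 replicate 1, MYB at 0.35 (range over single libraries left out -9.28 to 0.35) and NOTCH1 at 0.51 (-1.37 to 0.51). Reversed kit values in Jurkat were RUNX1 at -0.035 without a filter, -0.44 from replicates 1 and 3, and -0.12, -0.098 and -0.037 without 3′ v3 replicate 2, 3′ v3 replicate 4 and 5′ v1 replicate 1 (range over single libraries left out -0.12 to 0.18), and NOTCH1 at -0.017 from replicates 1 and 3. The cause was not tested. The lines were compared within libraries; with kit in place of library as the term, 5711 genes were called, and 9 of 9 members. No paired analysis was possible between kits because their replicate numbers, given in the order of the samples, pair nothing. The few TALL-104 cells (70 and 30 in 5′ v1, 41 in 3′ v2) limit those kits.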

Other observations

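The 1025 human cells between the marker thresholds held TAL1 at 54.7 CPM, MYB at 107 and LMO2 at 5.25, beside 51.1, 166 and 0.167 in Jurkat and 4.75, 5.24 and 55.2 in TALL-104, all pooled over libraries. Of these cells, 624 had over 6000 UMIs. Among 14 erythroid and megakaryocyte genes, a lineage in which TAL1 normally acts, 7 had 0 UMIs in Jurkat and 10 had 0 in TALL-104, with HBB, ALAS2 and PF4 at 0 in both, and the sum of the list was 7.34 to 19.2 CPM in Jurkat and 5.97 to 74.8 in TALL-104, where 3′ v3 replicate 3 held the 74.8 and the other 6 libraries reached 21.7. KLF1 had 96 UMIs in Jurkat and 0 in TALL-104. HBA2 and HBA1 went the other way, with 119 and 34 UMIs in TALL-104 (19.5 and 5.57 CPM) and 53 and 19 in Jurkat (0.368 and 0.132 CPM). TALL-104 was the higher in 1 library for HBA2 and in 3 for HBA1, and Jurkat in 1 for each. Pooled, 4 genes of the list were higher in Jurkat and 3 in TALL-104. Of 6 B cell genes, 4 had the higher pooled level in Jurkat and 2 in TALL-104. CD79A was found in both lines, at 42.6 CPM in Jurkat and 31.0 in TALL-104, and CD79B stood at 0.431 and 12.5. The list sum was 22.8 to 60.2 in Jurkat and 23.6 to 66.2 in TALL-104.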
